A study of Mus musculus with 8 samples.

Results

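The genes described here are 8 chemokines and 1 haematopoietic growth factor read out in cultured mouse astrocytes: CCL2, CCL7, CXCL1, CXCL5, CXCL12, CXCL14, CXCL16, CX3CL1 and CSF1, called below by their mouse symbols. They were chosen by name, and all 9 of 9 were found among the 13937 genes of the deposited count table. All 9 were also among the 13509 genes with enough counts to be tested, so no member was lost to the filter on low counts.

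RNA was sequenced from primary astrocytes grown from the brains of C57BL/6 pups on postnatal day 1. The pups were wild type (WT) or RGC-32 knockout (RGC-32 KO, here also KO), carrying a knockout of Rgcc, the gene of the cell cycle regulator RGC-32. Which part of the gene is deleted is not given in the sources used here. Cultures of each genotype were left untreated (WT control, RGC-32 KO control) or stimulated (WT TGF-β, RGC-32 KO TGF-β), 4 groups with 2 biological replicates each and 8 libraries in all. TGF-β was given at 10 ng/ml for 24 h after overnight serum starvation, and every group shared that starvation, removal of the meninges and the shaking off of loosely attached cells. How many pups went into a culture is not given in the sources used here. The p-values over all libraries therefore measure the spread between these 2 libraries per group.

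Chemokines are small secreted proteins that draw leukocytes along a concentration gradient through G protein-coupled receptors. Reactive astrocytes are a known source of them, and of Csf1, in inflamed brain. Ccl2 and Ccl7 attract monocytes through Ccr2, and Cxcl1 and Cxcl5 attract neutrophils through Cxcr2. Cxcl12 acts on Cxcr4 and Ackr3. Cxcl16 and Cx3cl1 are made as membrane-bound proteins that ADAM proteases can release, and act on Cxcr6 and Cx3cr1. Csf1 keeps microglia alive through Csf1r.

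The thresholds were an adjusted p under 0.05 and a log2 fold change of at least 0.6 in either direction. Of the 9 genes, Cxcl14 was the 1 that passed both with TGF-β, in each genotype. This was near the background, since 13.4% of all genes tested passed both in WT and 11.5% in RGC-32 KO. Over all libraries Cxcl14 rose about 2-fold in both genotypes, and its call was close to the threshold. The rise was 2.8-fold in WT and 2.97-fold in RGC-32 KO within replicate 1, and 1.28-fold and 1.41-fold within replicate 2. Cx3cl1 rose and Cxcl12 fell in both genotypes at the adjusted p threshold, by less than the fold threshold. With Cxcl14 they made 3 of 9 at the adjusted p, beside 32.9% of all genes in WT and 28.4% in RGC-32 KO. Csf1 was abundant in every library and did not pass the test over all libraries. Cxcl1 and Cxcl5 were lower with TGF-β in the replicate 1 libraries and nearly level in the replicate 2 libraries, and neither passed the test. No member passed both thresholds between genotypes over all libraries, beside 0.037% of all genes without and 0.0444% with TGF-β.

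A feature of the data has to be known before the values are read. For 4 members the deposited counts of the 4 replicate 2 libraries were nearly the same number whatever the genotype and treatment. Ccl7 had 889 counts in untreated and 889 in TGF-β-treated WT cultures, and 888 in untreated and 888 in TGF-β-treated KO cultures. Independent counts around that mean of 888.5 would have an SD of about 29.8 from counting alone, while the observed SD was 0.577. The ratio of variance to mean, which is about 1 for pure counting noise, was 0.000375 for Ccl7 over the replicate 2 libraries, the lowest of 8870 genes with a mean of at least 300 counts over the 8 libraries. It was 0.0428 for Cxcl1, 0.165 for Ccl2 and 0.359 for Cxcl5, at positions 14, 42 and 97 from the lowest. Over the 4 replicate 1 libraries the same ratio was 3.79 for Ccl7, 217 for Cxcl1, 55.6 for Ccl2 and 1519 for Cxcl5.

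The near equality was not general. A ratio under 0.2 was found for 51 of the 8870 genes in the replicate 2 libraries and 5 in the replicate 1 libraries, and the median ratio was 10.4 and 15.5. After Ccl7, the genes with the lowest ratios in replicate 2, named after their values were seen, were Nfkbiz, Zc3h12a, Map3k8, Mitd1 and Zmynd19. Of these, Nfkbiz (0.202), Zc3h12a (0.0727) and Map3k8 (0.0363) were also under 1 in replicate 1. Of the 16 other chemokines tested, 7 had a ratio under 1 in replicate 2 and 1 in replicate 1, against 6.67% and 4.22% of all genes tested. The deposited FPKM values showed the same, with Ccl7 between 74.86 and 75.31 in the 4 replicate 2 libraries. Whether values were adjusted before deposit is not given in the sources used here, and what made these counts equal was not tested. For this reason every TGF-β result of the 9 members is given below over all libraries and within each replicate number, those of other genes over all libraries. The 2 libraries of a group are not taken to measure the spread of these 4 genes well. The numbers were not taken to pair the samples, and ratios within a number are descriptive. Over all genes, same-numbered libraries deviated oppositely between treatments (correlation of replicate differences −0.343 within WT and −0.348 within RGC-32 KO). The part of this in responses that differ between the numbers was not tested.

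**Figure D1:**
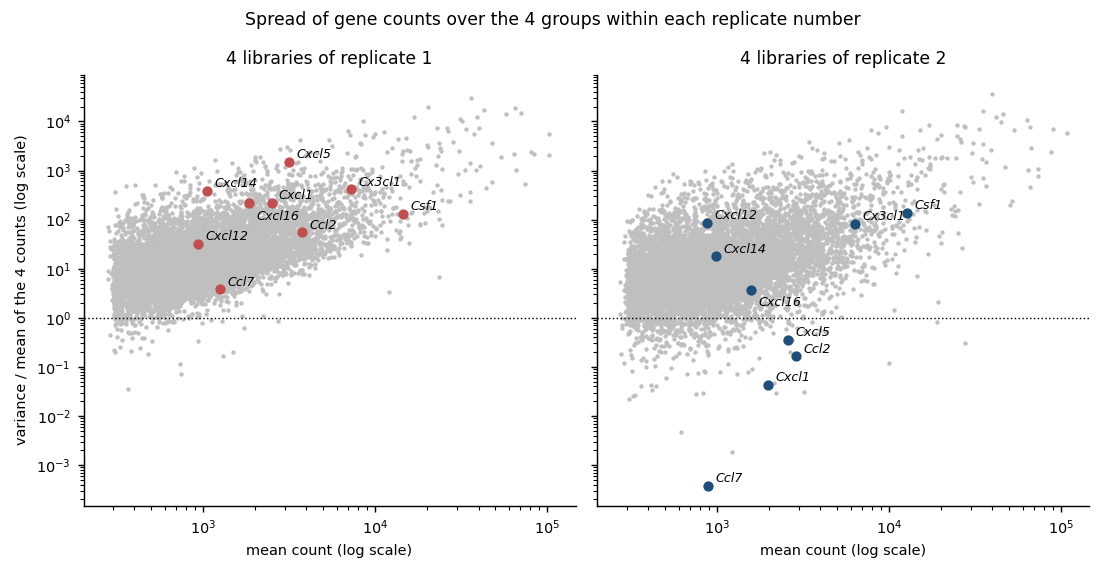
Variance divided by mean of the 4 counts of each gene, 1 per group, against their mean, both on log scales, for replicate 1 (left) and replicate 2 (right). Grey points are genes with a mean of at least 300 counts over the 8 libraries, coloured points the 9 members, and the dotted line is a ratio of 1. In replicate 2, Ccl7, Cxcl1, Ccl2 and Cxcl5 lie below the line, with Ccl7 lowest at 0.000375, and the other 5 members lie above it in both panels.

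Library totals ran from 14920561 to 18956038 counts on genes, so a count of 3, taken as the floor of detection, was worth 0.166 to 0.201 CPM, and every member lay far above it. CPM is a gene's count per M counts of its library (M, mega), with library totals scaled by the TMM method. Rgcc, the targeted gene, had 80 and 94 counts in untreated and 215 and 362 in TGF-β-treated WT cultures, and 61 and 28 in untreated and 64 and 26 in TGF-β-treated KO cultures. In replicate 1 the KO libraries, at 3.89 and 4.29 CPM, were near untreated WT (5.16 and 5.61 CPM over both numbers) and above the KO libraries of replicate 2 (1.66 and 1.72 CPM), so the level of Rgcc did not clearly separate the untreated genotypes in replicate 1. The TGF-β target genes Smad7, Skil and Ltbp2 checked the treatment label, and passed both thresholds upward in each genotype, while Tgfbi did not pass in either (adjusted p = 0.05 after rounding in WT and 0.145 in RGC-32 KO). Astrocyte markers were present, all 10 of 10 tested, at a summed 3580 to 6000 CPM, and their sum was lower with TGF-β within each genotype. Of the 10, 2 were lower past both thresholds in each genotype. At the adjusted p alone 7 were lower and 1 higher in WT, and 6 lower and 1 higher in RGC-32 KO. The higher one was Gja1, a gap junction gene (log2 0.35 and 0.33, adjusted p = 0.00963 and 0.0137), and Gfap did not pass (adjusted p = 0.127 and 0.287). Microglial markers were present too, all 14 of 14 tested, at a summed 1410 to 1730 CPM in untreated and 1270 to 1670 in treated WT cultures, and 1520 to 1680 in untreated and 1300 to 1470 in treated KO cultures.

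Ccl2 (ENSMUSG00000035385, chr11:82035571-82037453) and Ccl7 (ENSMUSG00000035373, chr11:82045712-82047525) are protein-coding genes on the plus strand in the GRCm38 build, 8.26 kb apart in the cluster of CC chemokines. Ccl2 had, in replicates 1 and 2, 254 and 173 CPM in untreated and 179 and 184 in TGF-β-treated WT cultures, and 276 and 173 in untreated and 246 and 190 in TGF-β-treated KO cultures. The replicate 1 value was the higher one in 3 of the 4 groups, and the control and TGF-β libraries overlapped in both genotypes. The fitted log2 change with TGF-β was −0.24 in WT (SE 0.244, edgeR adjusted p = 0.492) and −0.04 in KO (SE 0.244, adjusted p = 0.915). Within replicate 1 the TGF-β library had 0.705 times the control level in WT and 0.891 times in RGC-32 KO, and within replicate 2 the ratios were 1.06 and 1.1. The replicate 2 ratios above 1 rest on the TMM scaling. The counts before it were 2905 and 2874 in untreated and treated WT and 2916 and 2873 in KO.

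Ccl7 had 86.7 and 53.1 CPM in untreated and 65.1 and 56.8 in TGF-β-treated WT cultures, and 78.8 and 52.6 in untreated and 84.3 and 58.7 in TGF-β-treated KO cultures. Here the replicate 1 library was the higher one in every group, and control and TGF-β libraries overlapped in both genotypes. The log2 change was −0.19 in WT (95% interval −0.83 to 0.44, adjusted p = 0.623) and 0.12 in KO (95% interval −0.51 to 0.76, adjusted p = 0.766). The TGF-β to control ratio within replicate 1 was 0.752 for WT and 1.07 for KO, and within replicate 2 it was 1.07 and 1.12. Since the replicate 2 counts were 888 or 889, the differences between its CPM values rest on the TMM scaling of the library totals. In WT the unscaled replicate 2 total was higher with TGF-β (16836542 against 15965007 counts), and the TMM factor that multiplies it was lower (0.929 against 1.05). In KO the totals were 15799133 with and 15915399 without TGF-β, and the factors 0.9583 and 1.062.

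The direction of both genes hung on single libraries. Without WT control replicate 1 the WT change of Ccl2 turned to 0.06 and that of Ccl7 to 0.20. In RGC-32 KO, Ccl2 turned to 0.32 without control replicate 1 and to 0.11 without TGF-β replicate 2, and Ccl7 to −0.14 without control replicate 2 and to −0.16 without TGF-β replicate 1. No direction with TGF-β is given for either gene.

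Cxcl5 (ENSMUSG00000029371, chr5:90759360-90761624) and Cxcl1 (ENSMUSG00000029380, chr5:90891241-90893115) lie 130 kb apart on the plus strand, in the cluster of neutrophil-attracting CXC chemokines. Cxcl5 varied most among the 9 members. It had 309 and 157 CPM in untreated and 51.4 and 165 in TGF-β-treated WT cultures, and 336 and 155 in untreated and 110 and 170 in TGF-β-treated KO cultures. In replicate 1 both control libraries were far above both TGF-β libraries, while the 4 replicate 2 libraries lay between 155 and 170 CPM.

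The fitted log2 change of Cxcl5 was −1.11 in WT (SE 0.582, adjusted p = 0.179) and −0.81 in KO (SE 0.576, adjusted p = 0.326). Neither passed the test, although both sizes exceeded the fold threshold, and its SEs were the largest of the 9 members. The ratio of TGF-β to control was 0.167 for WT and 0.328 for KO within replicate 1, and 1.05 and 1.09 within replicate 2. The replicate 2 counts before scaling were slightly lower with TGF-β, 2630 and 2578 in untreated and treated WT and 2624 and 2571 in KO. These ratios above 1 therefore rest on the TMM scaling. Without WT TGF-β replicate 2 the WT change became −2.20 with an adjusted p of 0.0491, and without WT TGF-β replicate 1 it was −0.49.

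Cxcl1 followed the same pattern at a smaller size. It had 203 and 119 CPM in untreated and 95.8 and 126 in TGF-β-treated WT cultures, and 200.4 and 118 in untreated and 136 and 131 in TGF-β-treated KO cultures. Replicate 1 again separated control from TGF-β, and replicate 2 did not. The log2 change was −0.53 in WT (SE 0.296, adjusted p = 0.205) and −0.26 in KO (SE 0.295, adjusted p = 0.546), with ratios of 0.473 and 0.677 within replicate 1 and of 1.06 and 1.11 within replicate 2. Here too the replicate 2 ratios above 1 rest on the scaling, from counts of 1989 and 1977 in untreated and treated WT and 1994 and 1975 in KO. In RGC-32 KO the log2 change turned to 0.16 without control replicate 1.

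The promoter of Cxcl1 is shown because it is 1 of 2 member promoters holding a match to the κB consensus, the site bound by NF-κB. Sequences are the 250 bases before the RefSeq start on GRCm38.p6, 5′ to 3′ on the gene's strand, and 5 of the 9 members had an entry: Csf1, Cx3cl1, Cxcl1, Cxcl12 and Cxcl14. Capitals mark the κB match, which in Cxcl1 (chr5:90890995-90891244, plus strand) covers overlapping matches on both strands from 71 bases before the start. In Csf1 (chr3:107760470-107760719, minus strand) the match lies on the opposite strand, 154 bases before the start.
Cxcl1: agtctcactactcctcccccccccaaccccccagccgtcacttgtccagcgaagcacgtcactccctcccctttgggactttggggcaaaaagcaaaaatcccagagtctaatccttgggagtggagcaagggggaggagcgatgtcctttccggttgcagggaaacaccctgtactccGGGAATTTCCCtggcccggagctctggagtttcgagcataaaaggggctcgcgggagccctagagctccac
Csf1: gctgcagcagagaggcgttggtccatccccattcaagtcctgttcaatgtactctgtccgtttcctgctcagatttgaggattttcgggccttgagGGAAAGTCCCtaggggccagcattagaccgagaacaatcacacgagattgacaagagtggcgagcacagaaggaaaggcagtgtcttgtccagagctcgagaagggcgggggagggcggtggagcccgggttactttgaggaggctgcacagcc
The κB consensus was found in 7.25% of the 32851 promoter windows in the table. A match describes letters and no binding was measured here.

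Cxcl14 (ENSMUSG00000021508, chr13:56288643-56296551, minus strand) encodes a highly conserved chemokine made in epithelia and brain. It had 35.3 and 56.8 CPM in untreated and 99.2 and 73.0 in TGF-β-treated WT cultures, and 31.9 and 49.2 in untreated and 94.9 and 69.6 in TGF-β-treated KO cultures. Every TGF-β library was above every control library of either genotype. The mean was 46.1 ± 15.2 CPM (SD, n = 2) in WT control and 86.1 ± 18.5 after stimulation, and 40.5 ± 12.2 and 82.3 ± 17.9 for untreated and stimulated KO.

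Cxcl14 rose 1.87-fold in WT (log2 0.90, SE 0.282, adjusted p = 0.0426) and 2.03-fold in KO (log2 1.02, SE 0.286, adjusted p = 0.0325). Both thresholds together were passed by 13.4% of all genes tested in WT and 11.5% in RGC-32 KO, so that 1 of 9 members was near the background share in either genotype. Within replicate 1 the rise was 2.8-fold in WT and 2.97-fold in RGC-32 KO, and within replicate 2 it was 1.28-fold and 1.41-fold. Each number agreed in sign, and the size differed more between the replicate numbers than between the genotypes.

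The call of Cxcl14 was close to the threshold. In WT it was lost with DESeq2 (adjusted p = 0.0765), with upper quartile scaling (0.0578), with edgeR on the 4 WT libraries (0.0552) and on FPKM values with a pseudocount of 1 (0.0816), and without control replicate 1 (log2 0.60, adjusted p = 0.174), TGF-β replicate 1 (0.67, 0.183) or TGF-β replicate 2 (1.09, 0.0609). In RGC-32 KO it was lost on the same FPKM values (0.055), and without control replicate 1 (0.72, 0.158), TGF-β replicate 1 (0.78, 0.156) or TGF-β replicate 2 (1.20, 0.0506). The sign was positive under all 20 alternatives in each genotype. Those without a fold threshold and with Bonferroni's adjustment reuse the main fit, so their sign could not differ. Those that left out a library of the other genotype kept every library compared.

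The promoter window of Cxcl14 (chr13:56296552-56296801, minus strand) is shown as that of the called member. It held no match to CAGAC, a core of Smad-binding elements that 42.2% of all windows held on either strand, to the AP-1 site TGANTCA, held by 6.75%, or to the κB consensus. No capitals are therefore used.
Cxcl14: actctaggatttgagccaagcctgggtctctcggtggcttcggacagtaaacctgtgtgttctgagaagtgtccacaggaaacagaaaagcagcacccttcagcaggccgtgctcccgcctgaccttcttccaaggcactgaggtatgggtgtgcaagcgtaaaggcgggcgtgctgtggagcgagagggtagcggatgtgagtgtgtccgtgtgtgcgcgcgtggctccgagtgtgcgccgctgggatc
None of the 5 member windows held CAGAC or TGANTCA, which says only that these letters are missing from 250 bases.

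Cxcl12 (ENSMUSG00000061353, chr6:117168535-117181367, plus strand) is the homeostatic chemokine that holds Cxcr4-bearing cells in place. It had 71.9 and 72.9 CPM in untreated and 48.4 and 48.7 in TGF-β-treated WT cultures, and 66.4 and 56.9 in untreated and 48.6 and 38.5 in TGF-β-treated KO cultures. The replicates were close to each other in WT, and every TGF-β library was below every control library of either genotype.

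Cxcl12 fell by 0.58 on the log2 scale in WT (SE 0.112, adjusted p = 0.00676) and by 0.50 in KO (SE 0.114, adjusted p = 0.0147), just short of the fold threshold of 0.6 in both. In RGC-32 KO the adjusted p passed 0.05 without control replicate 1 (log2 −0.40, 0.0662) or TGF-β replicate 2 (−0.36, 0.0663), and the fall passed both thresholds without control replicate 2 (−0.61, 0.0235) or TGF-β replicate 1 (−0.68, 0.00922). In WT the adjusted p stayed at or under 0.0346 in all alternatives but Bonferroni's adjustment. Within replicate 1 the TGF-β level was 0.674 times control in WT and 0.732 times in RGC-32 KO, and within replicate 2 it was 0.668 and 0.677 times. It was the member whose response was most alike across genotype and replicate number among those that passed the adjusted p threshold. With upper quartile scaling the WT change was −0.66, and on FPKM values with a pseudocount of 1 it was −0.92 for WT and −0.74 for KO, each past both thresholds. The FPKM scaling also moved the median of all genes in WT to −0.11.

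Cx3cl1 (ENSMUSG00000031778, chr8:94772009-94782427, plus strand), fractalkine, is the membrane-bound ligand of the microglial receptor Cx3cr1. It had 356 and 348 CPM in untreated and 489 and 465 in TGF-β-treated WT cultures, and 389 and 341 in untreated and 586 and 442 in TGF-β-treated KO cultures. The TGF-β libraries were above the control libraries in both genotypes and both replicate numbers.

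Cx3cl1 rose 1.36-fold in WT (log2 0.44, SE 0.127, adjusted p = 0.0328) and 1.41-fold in KO (log2 0.49, SE 0.127, adjusted p = 0.0236). Within replicate 1 the ratios were 1.37 and 1.51, and within replicate 2 they were 1.33 and 1.3. In RGC-32 KO the log2 change was 0.66 without TGF-β replicate 2, past both thresholds, and 0.28 without TGF-β replicate 1. The adjusted p of WT went above 0.05 when any 1 of its 4 libraries was left out (control replicate 1 0.0878, control replicate 2 0.132, TGF-β replicate 1 0.106, TGF-β replicate 2 0.0907), with upper quartile scaling (0.0667) and on FPKM values (0.232 with a pseudocount of 1). That of KO went above 0.05 without control replicate 2 (0.127) or TGF-β replicate 1 (0.115), with edgeR on 4 libraries (0.0516) and on FPKM values (0.105 with a pseudocount of 1).

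Cxcl16 (ENSMUSG00000018920, chr11:70453983-70459984, minus strand), the other membrane-bound chemokine and a scavenger receptor, had 88 and 92.9 CPM in untreated and 143 and 95.2 in TGF-β-treated WT cultures, and 82.6 and 98.6 in untreated and 147 and 107 in TGF-β-treated KO cultures. In replicate 1 the TGF-β libraries stood well above control, and in replicate 2 they hardly did. The log2 change was 0.40 in WT (SE 0.205, adjusted p = 0.176) and 0.48 in KO (SE 0.205, adjusted p = 0.116), and neither passed. The ratios were 1.62 and 1.77 within replicate 1 and 1.02 and 1.08 within replicate 2. Without WT TGF-β replicate 2 the WT change became 0.64 with an adjusted p of 0.05 after rounding, past both thresholds.

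Csf1 (ENSMUSG00000014599, chr3:107741048-107760469, minus strand) was the member with the most counts. It had 978 and 834 CPM in untreated and 869 and 752 in TGF-β-treated WT cultures, and 947 and 816 in untreated and 843 and 756 in TGF-β-treated KO cultures. The replicate 1 library was the higher one in each group. Within each replicate number the TGF-β library was somewhat below its control, at 0.889 and 0.89 times in replicate 1 and 0.901 and 0.927 times in replicate 2, for WT and RGC-32 KO. The fitted log2 change was −0.16 in WT (95% interval −0.44 to 0.12, adjusted p = 0.337) and −0.14 in KO (95% interval −0.42 to 0.14, adjusted p = 0.412). These intervals hold no fall or rise as large as the fold threshold, and the test does not show that Csf1 was the same. In additive models of genotype and TGF-β, with 1 library per group, Csf1 was at log2 −0.19 in replicate 1 alone and −0.13 in replicate 2 alone.

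**Figure D2:**
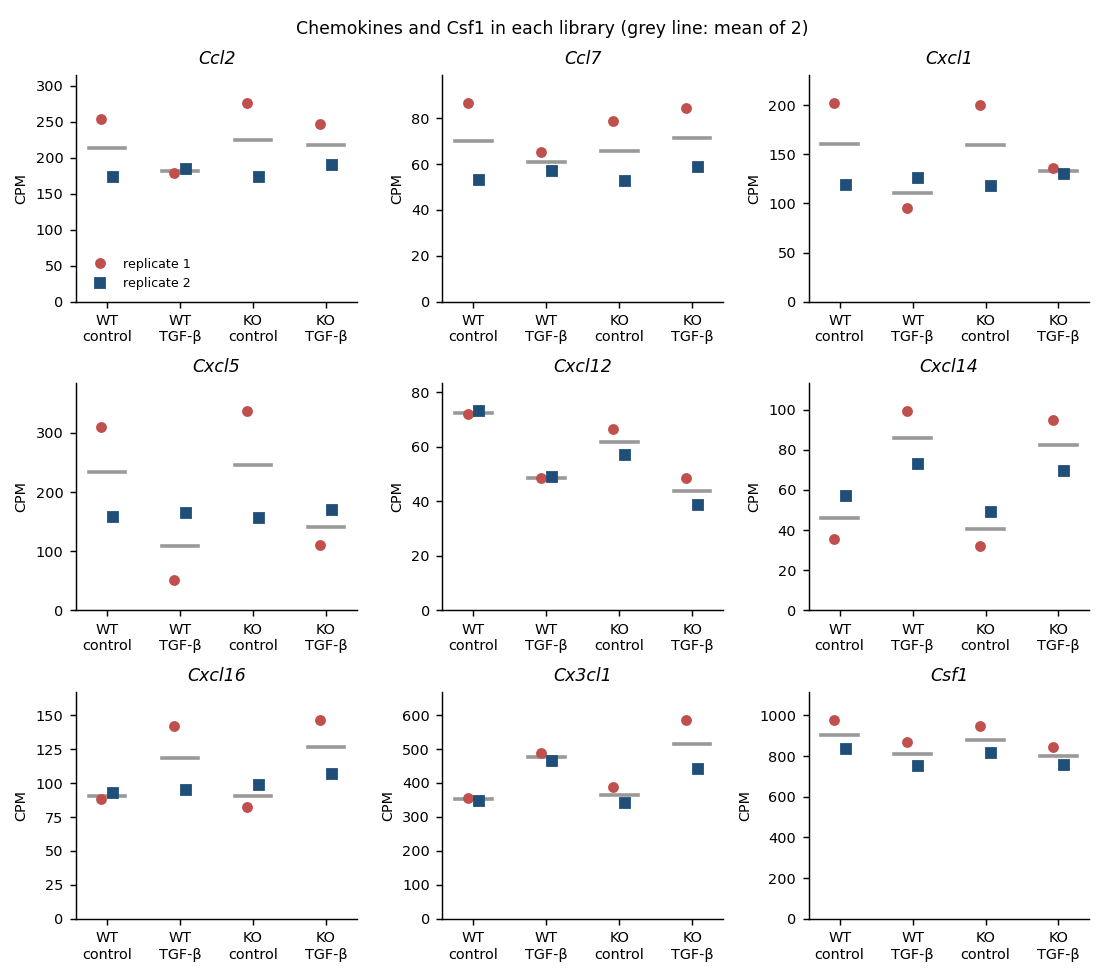
CPM of each of the 9 genes in the 8 libraries, with KO standing for RGC-32 KO, circles for replicate 1, squares for replicate 2 and a grey line for the mean of the 2. Cxcl14 rises and Cxcl12 falls with TGF-β in both genotypes without overlap, while the replicate 2 squares of Ccl2, Ccl7, Cxcl1 and Cxcl5 stay nearly level.

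Over the 9 members, an adjusted p under 0.05 with TGF-β was reached by 3 in each genotype, the same genes both times (Cx3cl1 and Cxcl14 higher, Cxcl12 lower). The background was 32.9% of all genes tested in WT and 28.4% in RGC-32 KO, so the share of members was near that of genes at large. The median log2 change of the members was −0.19 for WT and −0.04 for KO, beside −0.0048 and 0.0031 over all genes.

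In an additive model of genotype and TGF-β fitted to the replicate 1 libraries alone, added after the data were seen, 4 members passed both thresholds for TGF-β. Cxcl5 (log2 −2.09) and Cxcl1 (−0.84) were lower, and Cxcl14 (1.51) and Cxcl16 (0.74) higher, where 14.5% of all genes passed both. Another 4 members had an adjusted p under 0.05 below the fold threshold, Cx3cl1 (0.50) higher and Cxcl12 (−0.53), Ccl2 (−0.35, adjusted p = 0.000127) and Csf1 (−0.19) lower, so that 8 of 9 passed the adjusted p, beside 49.3% of all genes. In the same model on the replicate 2 libraries, 0 members passed both thresholds, against 16.8% of all genes. There Cxcl14 (0.43), Cx3cl1 (0.40) and Cxcl12 (−0.57) had an adjusted p under 0.05, 3 of 9 beside 43.2% of all genes. Each of these fits has 1 library per group and assumes that both genotypes respond alike. Their p-values therefore do not measure the spread between cultures of a group.

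**Figure D3:**
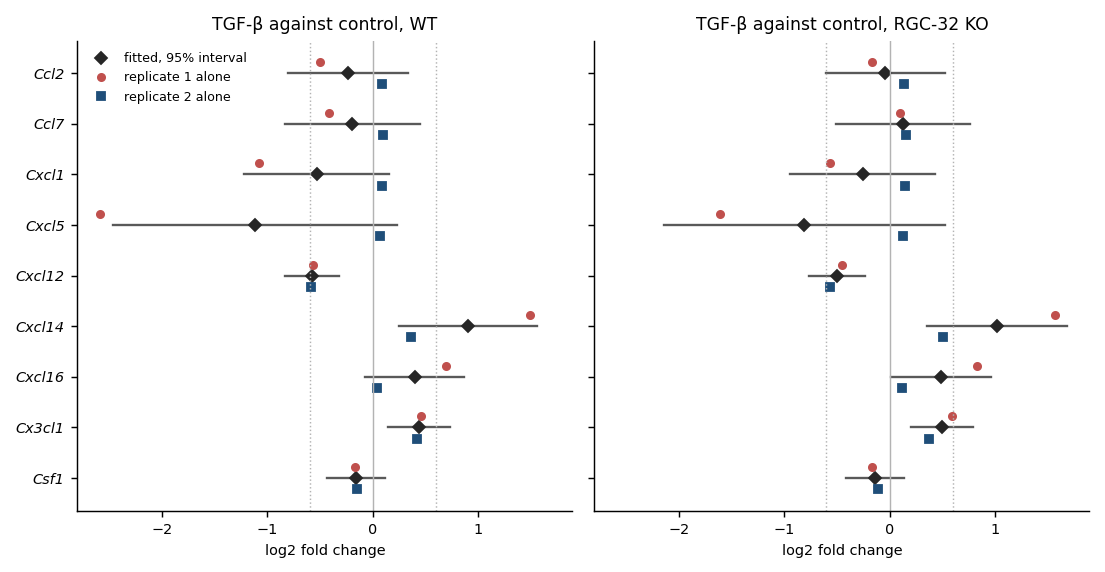
Log2 fold change of TGF-β against control in WT (left) and RGC-32 KO (right), with diamonds and bars for the fitted value over all 8 libraries and its 95% interval, circles for replicate 1 alone and squares for replicate 2 alone. Dotted lines mark the fold threshold of 0.6. The circle and square lie close together for Cxcl12, Cx3cl1 and Csf1 and part widely for Cxcl5, at −2.59 and 0.07 in WT.

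The comparison of RGC-32 KO with WT asks whether the genotype sets the level of these genes. Without TGF-β, 0 of 9 members passed both thresholds, against 0.037% of all genes tested. EdgeR gave 0 members with an unadjusted p under 0.05, beside 924 of the 13509 genes tested. The member nearest to the threshold was Cxcl12, at 72.4 ± 0.689 CPM (SD, n = 2) in WT and 61.7 ± 6.74 in RGC-32 KO, with a log2 difference of −0.23 (SE 0.111, adjusted p = 0.73). The ratio of KO to WT for Cxcl12 was 0.924 within replicate 1 and 0.781 within replicate 2. With TGF-β, 0 of 9 passed, against 0.0444% of all genes, and again 0 had an unadjusted p under 0.05, beside 1576 of the 13509 genes tested. Differences with TGF-β ran from −0.16 for Cxcl12 to 0.38 for Cxcl5.

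How finely the genotypes could be compared differed among members. The SE of a genotype difference ran from 0.111 for Cxcl12 to 0.568 for Cxcl5 without TGF-β. For Csf1 the 95% interval was −0.32 to 0.24 without and −0.30 to 0.26 with TGF-β, and for Cxcl5 it was −0.97 to 1.73 with TGF-β. Within replicate 1, Cxcl5 after TGF-β was 2.14 times as high in RGC-32 KO as in WT, and within replicate 2 the ratio was 1.03. In the additive models of single replicate numbers, 0 members passed both thresholds between genotypes, against 0.94% of all genes in replicate 1 and 1.41% in replicate 2. An adjusted p under 0.05 was reached in replicate 1 by Ccl2 (log2 0.29), Cxcl5 (0.53) and Cx3cl1 (0.19), higher in KO, beside 8.85% of all genes. In replicate 2 it was reached by Cxcl12 (−0.35), lower in KO, beside 6.17% of all genes, and there the counts of Ccl2 and Cxcl5 were nearly equal in both genotypes. The additive models have 1 library per group, so their p-values do not measure the spread between cultures of a group. The genotype differences from these models are therefore descriptive. In replicate 1, Rgcc stood at 3.89 CPM in untreated KO and 5.16 CPM in untreated WT, and the part of this in the genotype values was not tested.

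The interaction asks whether TGF-β moved a gene differently in RGC-32 KO than in WT. It was under an adjusted p of 0.05 for 0% of all genes tested and for 0 of 9 members, with edgeR's unadjusted p under 0.05 for 381 genes and 0 members, and DESeq2 and limma-voom also called 0 genes. The differences in log2 response, RGC-32 KO minus WT, lay between 0.02 for Csf1 and 0.32 for Ccl7, with SEs of 0.16 to 0.813.

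Levels between genes were compared per transcript length, by the deposited FPKM values. Ccl2 had the highest median over the 8 libraries (199 FPKM, range 157 to 323), followed by Csf1 (174, 150 to 212), Cx3cl1 (117, 101 to 161) and Cxcl1 (111, 69.5 to 201). Then came Cxcl5 (87.9, 14.2 to 205), Ccl7 (75.2, 66.7 to 121), Cxcl16 (46.4, 42.5 to 70.0), Cxcl14 (28.7, 17.4 to 46.1) and Cxcl12 (22.8, 15 to 35.4). Each neighbouring pair in this order overlapped in range. By group means Ccl2 and Csf1 held the first and second places in all 4 groups, while Cxcl5 took the fourth in both control groups and the seventh and the sixth in treated WT and KO. These places of Cxcl5 rest on replicate 1, where it had 14.2 FPKM and the last place in treated WT, since in replicate 2 it was the fifth in every library, at 88.7, 87.3, 88.5 and 87.2 FPKM (WT untreated and treated, KO untreated and treated). Cxcl12 was above Cxcl14 in the control groups and below it with TGF-β, in both genotypes.

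**Figure D4:**
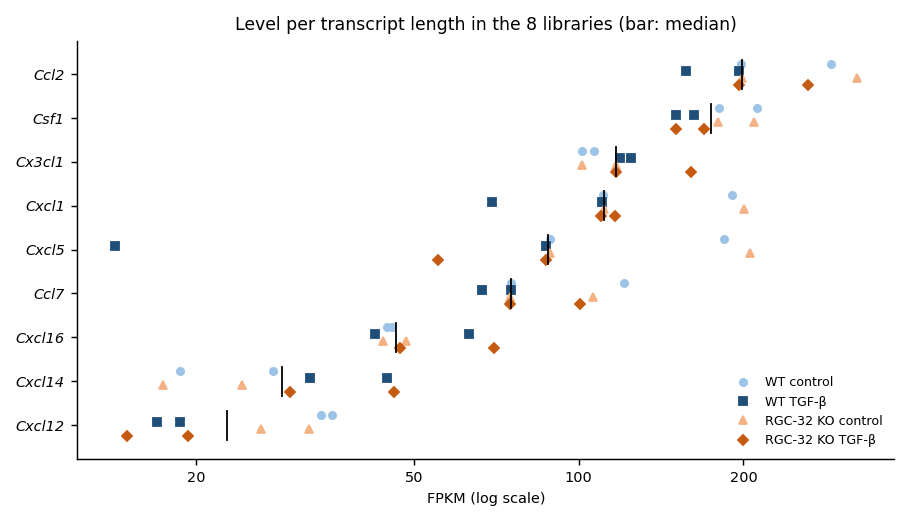
FPKM of each gene, on a log scale, in the 8 libraries, with a symbol for each group and a black bar for the median. The range is widest for Cxcl5 (14.2 to 205 FPKM), and the control and TGF-β symbols of Cxcl12 and Cxcl14 lie in opposite order.

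The receptors of these ligands were a list of 23 chemokine receptors, 11 of which could be tested. In each genotype 1 passed both thresholds, Cxcr6, the receptor of Cxcl16. Its counts were 12 and 22 in untreated and 188 and 181 in TGF-β-treated WT cultures, and 5 and 15 in untreated and 131 and 132 in TGF-β-treated KO cultures, without overlap. Its log2 change was 3.37 in WT (adjusted p = 0.000276) and 3.82 in RGC-32 KO (adjusted p = 0.000326). Of the others, Cxcr4 was at −0.39 and −0.38 and Cx3cr1 at −0.07 and −0.28, neither with an adjusted p under 0.05. Ackr3, the scavenger of Cxcl12, was lower in WT (log2 −0.27, adjusted p = 0.024) and at −0.08 in RGC-32 KO (adjusted p = 0.46). Ccr2, the receptor of Ccl2 and Ccl7, had 1 to 8 counts per library and was not tested, and Cxcr2 was not analysed here.

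Cxcr6, Cx3cr1 and Csf1r are known from leukocytes and microglia rather than from astrocytes. In bulk RNA, fewer cells of a type and less RNA per cell cannot be told apart, and the part of microglia in the receptor and chemokine levels was not tested. Csf1r itself had 3883 to 6592 counts per library and changed by 0.13 in WT and −0.01 in RGC-32 KO (adjusted p = 0.516 and 0.975). Il34, its second ligand, was lower in WT (log2 −0.40, adjusted p = 0.0247) and at −0.21 in RGC-32 KO (adjusted p = 0.187). Of the 5 tested genes of that ligand and receptor family, 0 passed both thresholds in either genotype.

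Proteases that cut these chemokines, with the inactive rhomboid proteins Rhbdf1 and Rhbdf2 that partner Adam17, were a list of 7 genes, all tested, and 3 passed both thresholds upward in each genotype. Mmp14 rose by 1.27 on the log2 scale in WT and 1.15 in RGC-32 KO (adjusted p = 0.000122 and 0.000201). Mmp2, the gelatinase that trims Ccl7 and Cxcl12, rose by 1.08 and 1.05 (adjusted p = 0.00284 and 0.00394), and Rhbdf1 by 0.81 and 0.84 (adjusted p = 0.00113 and 0.00117). Adam10, a sheddase of Cx3cl1 and Cxcl16, was higher at 0.19 and 0.20 (adjusted p = 0.0298 and 0.0235), below the fold threshold. Adam17 was at 0.04 in both genotypes (adjusted p = 0.746 and 0.729), and Dpp4, which clips Cxcl12, was at −1.24 and −0.90 from 7 to 54 counts per library (adjusted p = 0.0928 and 0.24).

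Of 28 other chemokines on a fixed list, 16 could be tested, and with TGF-β 0 passed both thresholds in WT and 1 in RGC-32 KO. It was Cxcl10, an interferon-induced chemokine, at a log2 change of 0.65 (adjusted p = 0.0412), beside 0.45 in WT (adjusted p = 0.115). The median log2 change of the 16 was −0.44 for WT and −0.30 for KO. Among neighbours of the members in their clusters, Cxcl2 and Ccl12 were lower with TGF-β in replicate 1 and nearly level in replicate 2. Cxcl2 had 753, 427, 676 and 389 counts in replicate 1 (WT untreated and treated, KO untreated and treated) and 442, 446, 451 and 442 in replicate 2. Ccl12 had 333, 163, 212 and 116 in replicate 1 and 169, 167, 175 and 162 in replicate 2. Ccl8 was nearly level in both numbers, with 20, 20, 20 and 21 counts in replicate 2 and 25 or 26 in replicate 1. Pf4 had lower counts with TGF-β in both numbers, 166, 110, 164 and 87 in replicate 1 and 121, 93, 124 and 94 in replicate 2, at a log2 change of −0.57 and −0.56 (adjusted p = 0.0931 and 0.11), and Ccl11 and Cxcl3, with 8 counts or fewer per library, were not tested. Close relatives such as Cxcl1 and Cxcl2 may share reads, and how the counting treated those is not given in the sources used here.

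The NF-κB pathway, known to drive Ccl2, Cxcl1 and Cxcl5, was a list of 16 genes, all tested, of which 0 passed both thresholds in either genotype. Ikbkg (log2 0.31 and 0.34, adjusted p = 0.00998 and 0.00811) and Chuk (0.30 and 0.23, adjusted p = 0.00671 and 0.0238), which encode subunits of the IκB kinase complex, were higher below the fold threshold. Nfkbiz, a nuclear IκB protein, had 1231, 1229, 1232 and 1229 counts in the 4 replicate 2 libraries, and Bcl3 had 223, 224, 223 and 223. In replicate 1 they were also close, at 1500, 1504, 1476 and 1469 for Nfkbiz and 274, 281, 279 and 270 for Bcl3. Of the 16 genes, 4 had a ratio of variance to mean under 1 in replicate 2 and 3 in replicate 1. Among 15 receptors for inflammatory signals, 0 passed in WT and 1 in RGC-32 KO, the interleukin 1 receptor subunit Il1rap (log2 0.66, adjusted p = 0.0295, beside 0.52 and 0.0576 in WT).

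Markers of other cells moved with TGF-β as well. The summed level of 9 tested markers of meningeal fibroblasts was 4480 to 5770 CPM in untreated and 8900 to 10000 in treated WT cultures, and 3710 to 3860 in untreated and 6630 to 6800 in treated KO cultures, with 3 of the 9 higher and 3 lower past both thresholds in WT, and 3 higher and 1 lower in RGC-32 KO. The rise of the sum was led by the collagen genes Col1a1 (log2 1.31 and 1.20) and Col1a2 (1.08 and 1.10), and Aldh1a2 was the third higher one (1.04 and 0.86). Pdgfra was lower in both genotypes (−0.98 and −0.71). Dcn (−0.62) and Ogn (−0.85) were lower past both thresholds in WT alone. Of 6 ependymal markers, 5 were lower past both thresholds in WT and 3 in RGC-32 KO. The summed microglial level overlapped between control and TGF-β in WT and was lower with TGF-β in RGC-32 KO, and 1 of 14 microglial markers, Tmem119, passed both thresholds upward in each genotype. The sum of 8 tested oligodendrocyte lineage markers was 229 to 266 CPM in untreated and 461 to 545 in treated WT cultures, and 221 to 262 and 374 to 491 for KO, led by Cspg4, which pericytes also express (log2 3.13 and 2.69). Of these 8, 1 was higher and 1 lower past both thresholds in WT, and 2 higher and 1 lower in RGC-32 KO. The lower one in both was Pdgfra, which is on the fibroblast list as well and was counted in each. The sum of 6 tested endothelial markers was 99.8 to 125 CPM in untreated and 73 to 74.8 in treated WT cultures, and 101 to 127 and 67.8 to 80.5 for KO. Of these 6, 2 were higher and 1 lower in WT, and 1 higher and 2 lower in RGC-32 KO, with Cdh5 lower in both (log2 −1.09 and −0.85). Of 4 tested neuronal markers 1 was higher in each genotype, Tubb3, and their sum was 97.2 to 138 CPM over all libraries. The part of these cells in the changes of Cxcl12, Cxcl14 and Cx3cl1 was not tested.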

How the data were processed

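Bulk RNA of 8 libraries (4 groups of 2) was sequenced unstranded. Alignment by the authors used STAR within VIPER, and per the labels Cufflinks and DESeq followed, on build mm10. The table of raw counts that the authors deposited holds 13937 gene symbols. They also deposited FPKM values for 18644 genes, used here for levels per length and as an alternative. The counting program and annotation are not given in the sources used here. Deposited tables of the authors' own comparisons (log2 fold changes and p-values) were not used.

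The count test was that of edgeR 4.0.16 under R 4.3.3 (filterByExpr, TMM, quasi-likelihood test, 1 model of 4 group means without a block). Limma 3.58.1 and DESeq2 1.42.0 served as alternatives. P-values were two-sided and adjusted by Benjamini-Hochberg over 13509 genes. A gene was called at an adjusted p under 0.05 and a log2 fold change of 0.6 or more in size (interaction: adjusted p alone). SE is the standard error of the log2 fold change. The 2 libraries of a group differed by 6.14 to 10.1 chi-square per degree of freedom. The procedure was tested on simulated data. Those counts were drawn independently for each library, without the near-equal replicate 2 counts or the correlated replicate differences seen here. The simulation therefore says nothing about errors that come from these features.

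The members and gene lists were chosen with earlier results of these data known. Named are all members, their receptors, proteases and cluster neighbours, up to 4 called genes per list, and Rgcc. Positions are from GENCODE M21 (GRCm38, the same assembly as mm10) and promoter windows from RefSeq (GRCm38.p6).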

Additional observations from a re-analysis of the deposited data

How the results depend on the processing

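The log2 changes with TGF-β of 9 genes in 2 genotypes were recomputed under 20 alternatives each, 360 values. Of these, 321 kept their direction and their side of the thresholds, 16 lost and 14 gained a call, and 9 reversed. The alternatives without a fold threshold and with Bonferroni's adjustment reuse the main fit, so they could not reverse. Those that left out a library of the other genotype kept every library compared. The reversals were in Ccl2, Ccl7 and Cxcl1, none of them called. Without single libraries, Ccl2 ranged from −0.50 to 0.0642 in WT and −0.34 to 0.318 in RGC-32 KO (0.112 without RGC-32 KO TGF-β replicate 2), Ccl7 from −0.52 to 0.203 and from −0.162 to 0.43 (−0.141 without RGC-32 KO control replicate 2), and Cxcl1 in RGC-32 KO from −0.59 to 0.155. On FPKM values Ccl7 in RGC-32 KO was at −0.039 with a pseudocount of 1 and −0.0393 with 0.1. The cause was not tested.

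The number of members called, 1 in each genotype, became 3 in both without a fold threshold and 0 in both with Bonferroni's adjustment. In WT it was 0 with DESeq2, 0 with edgeR on 4 libraries and 0 with the replicate block, where Cxcl14 had an adjusted p of 0.0571. It ranged from 0 to 2 in both genotypes when single libraries were left out. The replicate block changed no other call of a member, and over all genes it gave 1616 calls in WT and 1369 in RGC-32 KO, against 1806 and 1559. Same-numbered libraries deviated together between genotypes under the same treatment (correlation of replicate differences 0.491 without and 0.253 with TGF-β) and oppositely between treatments (−0.343 within WT, −0.348 within RGC-32 KO, −0.483 and −0.507 across genotypes), so the numbers were not taken to pair the samples. With the numbers crossed 2 members were called in each genotype (2105 and 1852 genes). Models of genotype and TGF-β on single replicate numbers, chosen after seeing the data, have 1 library per group, and their calls are not counted here. The genotype and interaction counts were 0 under every alternative run. The split of higher and lower calls over all genes in WT, 1043 and 763, became 857 and 1055 with upper quartile scaling and 514 and 589 on FPKM with a pseudocount of 1, and the median of all genes moved to −0.09 and −0.11. Depth limits no member, since all lay far above 3 counts. The near-equal replicate 2 counts of 4 members limit what their errors mean.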

Other observations

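The relation of FPKM to counts stood apart for Cxcl5 in 1 library. Relative to RGC-32 KO control replicate 2, the count per FPKM in WT TGF-β replicate 1 was 2.21 for Cxcl5, 1.49 for Ccl7, 1.41 for Cxcl12, 1.40 for Ccl2 and 1.39 for Cxcl1, against a median of 1.20 over 9270 genes. In the 3 other replicate 2 libraries the same measure was within 0.995 to 1.004 for Ccl7, Ccl2, Cxcl1 and Cxcl5. The cause was not tested.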
